A study of Mus musculus with 45 samples.

Results

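A set of 10 genes of the neural crest programme was followed, chosen by gene symbol: the SoxE genes Sox9, Sox10 and Sox8, the AP-2 genes Tfap2a and Tfap2b, the Snail genes Snai1 and Snai2, Ets1, and the receptor genes Ednrb and Kit. These are 10 of the 54532 genes in the count table, and all 10 were found in it by their Ensembl identifiers. RNA was sequenced from organoids grown in Matrigel from R1, a male mouse embryonic stem cell line, in N2B27 medium without serum. All organoids shared the line, the matrix and the medium. One group was collected at day 2, before any treatment, and the others 8 h and 18 h later and then every 12 h up to 78 h, either untreated or with 250 nM all-trans retinoic acid (RA) from day 2 on. Each of the 15 conditions had 3 libraries, which makes 45 in all, with 17298632 to 39688686 counted reads each. The organoids are a culture model from 1 cell line, and every library is RNA pooled from many organoids.

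The neural crest forms at the border between the neural plate and the surface ectoderm of vertebrate embryos, and its cells leave the neural tube to make peripheral neurons and glia, pigment cells and parts of the face. Signals first set up a border region marked by genes such as Msx1 and Pax3. A second tier of transcription factors, which holds the SoxE, AP-2 and Snail genes, Ets1 and Foxd3, then specifies the crest, and receptors such as Ednrb, for endothelins, and Kit, for stem cell factor, guide migration and survival of crest-derived cells. None of the 10 genes is limited to the crest. Sox9 and Ednrb are also known from progenitors of the neural tube, Tfap2a from surface ectoderm, Kit from germ cells and pluripotent cells, and Ets1 from blood vessels.

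The regions just upstream of the Ednrb and Kit genes are shown because these receptor genes had the largest and the earliest difference between the arms. That of Snai1 is shown because its RA effect differed between early and late organoids. This effect differed more in Tfap2a, by 3.23 against 1.81 on the log2 scale, but the windows of Tfap2a are not printed. The sequences are RefSeq promoter windows on GRCm38.p6, on the strand of the gene, and were ended before any annotated exon that they reach. For Ednrb the window is chr14:103843702-103843951 on the minus strand, within an intron of the longer annotated transcript. For Kit it is chr5:75574737-75574915 and for Snai1 chr2:167537945-167538194, both on the plus strand. Capitals mark matches to the AP-2 motif GCCNNNGGC and, in Snai1, also the Snail motif CAGGTG read on the other strand as CACCTG.
Ednrb: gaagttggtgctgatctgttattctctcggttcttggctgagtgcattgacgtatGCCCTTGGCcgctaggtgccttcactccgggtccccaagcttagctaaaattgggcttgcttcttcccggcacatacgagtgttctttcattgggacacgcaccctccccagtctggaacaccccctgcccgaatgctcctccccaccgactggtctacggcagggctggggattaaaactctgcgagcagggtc
Kit: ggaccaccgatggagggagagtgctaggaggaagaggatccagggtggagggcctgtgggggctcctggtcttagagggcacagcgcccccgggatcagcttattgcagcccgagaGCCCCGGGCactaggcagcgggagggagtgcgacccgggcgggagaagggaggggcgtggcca
Snai1: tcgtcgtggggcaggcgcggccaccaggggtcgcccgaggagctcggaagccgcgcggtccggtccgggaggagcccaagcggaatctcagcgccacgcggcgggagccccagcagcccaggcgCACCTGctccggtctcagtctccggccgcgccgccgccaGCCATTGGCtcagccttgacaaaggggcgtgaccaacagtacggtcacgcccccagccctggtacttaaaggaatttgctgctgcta

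Windows of 300 bases were at hand for 6 of the 10 genes: Sox8, Tfap2a, Tfap2b, Snai1, Ednrb and Kit. Both strands were searched for AP-2 (GCCNNNGGC), Snail (CAGGTG), SOX (AACAAT) and ETS (CCGGAA) motifs, for the retinoic acid receptor half-site in the form AGGTCA, the form GGGTCA, the form AGTTCA and the form GGTTCA, and for direct repeats of these half-sites spaced by 1, 2 or 5 bases. Positions count from the RefSeq start site of each window, which for Ednrb and Kit lies inside the annotated gene. The AP-2 letters stood at -195 to -187 in the Ednrb window, -134 to -126 in the Kit window and -87 to -79 in the Snai1 window. A second Kit window, with another start site, had the same letters at -138 to -130. AP-2 letters occur in 16.6% of all 32851 windows. The Snail letters of Snai1 stood at -126 to -121, with matches in 20.2% of all windows. A receptor half-site was found only in the Sox8 window, TGACCC at -196 to -191, and such half-sites occur in 43.7% of all windows. AP-2 letters were absent from the windows of Sox8, Tfap2a and Tfap2b, so the genes printed are the ones with AP-2 letters. No direct repeat, SOX or ETS letters were found in the windows of these 6 genes. The letters describe these windows only.

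Levels are given in counts per 1000000 counted reads (CPM), with library sizes scaled by TMM over all 45 libraries, as mean ± SD of 3 libraries. A gene was called between groups when edgeR's quasi-likelihood test on the counts gave a log2 fold change beyond 1 in size with an adjusted p below 0.01. In RNA from whole organoids, fewer cells that express a gene and less RNA per cell cannot be told apart. Uty, Kdm5d, Ddx3y and Eif2s3y, which lie on the Y chromosome, set 6 libraries apart, with a mean over these 4 genes of 1.22 to 3.65 CPM against 22.9 to 89.5 CPM in the other 39. They were RA-treated 8 h replicate 3, all 3 untreated 30 h libraries and RA-treated 30 h replicates 1 and 3. All 66 h and 78 h libraries, and 4 earlier ones, carry library numbers from a later series. The 4 are day 2 replicate 3, RA-treated 30 h replicates 2 and 3 and untreated 54 h replicate 3. At 30 h the later series thus holds RA-treated libraries only, so arm and series are partly mixed there.

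At 78 h the 3 RA-treated libraries lay above the 3 untreated ones for each of the 10 genes. How many of all genes had arms apart in this way was not counted, so whether the members stand out in this cannot be said. Of the 10 differences 6 were called, against 11.7% of all genes tested. The genes reached their 78 h levels along different courses. Kit differed first and returned close to the untreated level. Ednrb differed from 18 h on and by more than any other member at each time from 18 h to 66 h. Tfap2a and Snai1 fell in both arms after day 2 and were called higher with RA from 66 h and 54 h on, respectively. All 29 calls between the arms at the 7 times were higher with RA. Members recur among these calls, since Ednrb gave 6 of them and Sox9 and Sox8 gave 4 each. Upward calls also outnumbered downward ones among all genes at every time. The 18 h comparison had 1348 genes up and 455 down, the 54 h comparison 1177 up and 983 down. Whether the members lean upward more than other genes was not tested.

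**Figure D1:**
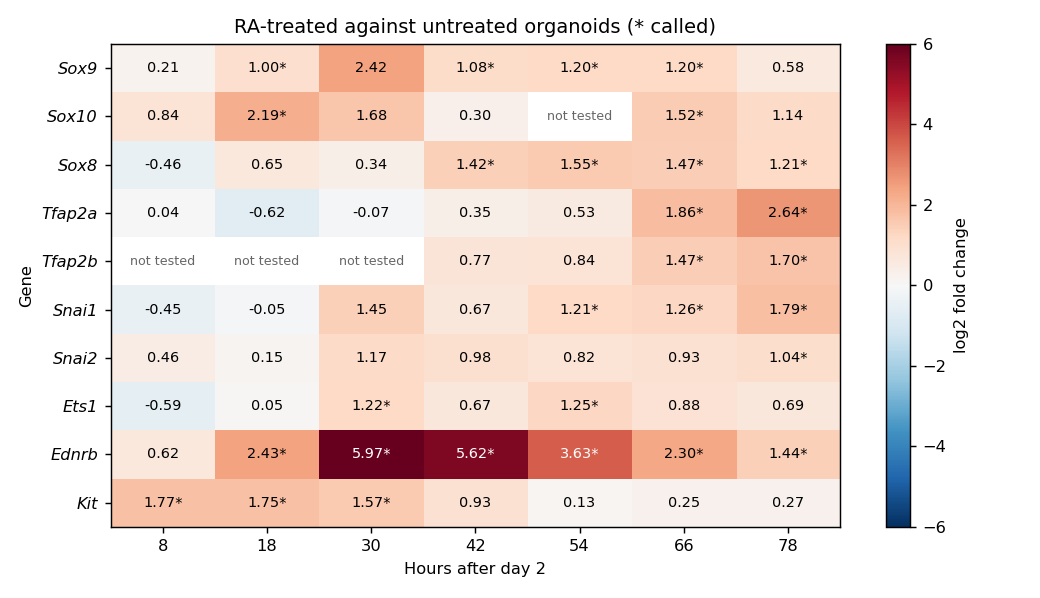
Log2 fold change of RA-treated over untreated organoids for the 10 genes (rows) at 8 to 78 h after day 2 (columns), from 3 libraries per arm; an asterisk marks a call. Kit is called from 8 h to 30 h, Ednrb from 18 h to 78 h with a peak of 5.97 at 30 h, and Tfap2a, Tfap2b and Snai1 are called at 66 h and 78 h. The untreated 30 h libraries held 7 to 10 Ednrb reads each.

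At 8 h, 1 of the 9 genes with enough counts was called, where 1.8% of the 15836 genes tested were called in either direction. The gene was Kit, the receptor tyrosine kinase for stem cell factor. At 18 h, 4 of 9 genes were called against 10.9% of all 16508 tested, and at 30 h it was 3 of 9 against 8.45%. At 42 h, 3 of 10 were called against 12.5%, and at 54 h 5 of 9 against 13.2%. The last 2 times gave 7 of 10 called at 66 h, against 11.5%, and 6 of 10 at 78 h, against 11.7%. Tfap2b was not tested at 8, 18 and 30 h and Sox10 not at 54 h, since their counts were too low. The median log2 fold change of the tested members was 0.21 at 8 h, 0.65 at 18 h, 1.45 at 30 h and 1.18 at 78 h, while that of all tested genes stayed between -0.01 and 0.04 at the 7 times. With the looser rule of an adjusted p below 0.05 at any fold change, 6 members passed at 30 h, against 28.9% of all genes, 7 at 42 h, against 50.8%, and 10 at 78 h, against 47%.

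Ednrb (ENSMUSG00000022122, chromosome 14, 103814625 to 103844402, GRCm38), which encodes the endothelin receptor type B, had the widest range of the members. At day 2 its 3 libraries held 0.373, 0.899 and 0.166 CPM, from 4 to 18 reads each. With RA it stood at 2.47, 1.86 and 1.70 CPM at 18 h and at 30.6, 22.2 and 29.8 CPM at 30 h. The RA-treated libraries rose between each of these times without overlap. At 42 h they held 124, 107 and 94.7 CPM, after which the mean moved only from 132 ± 31.2 CPM at 54 h through 147 ± 6.62 CPM at 66 h to 160 ± 20.7 CPM at 78 h, with overlapping libraries.

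Untreated organoids showed the rise of Ednrb later. Their libraries held 0.541, 0.248 and 0.347 CPM at 18 h and 0.376, 0.427 and 0.511 CPM at 30 h, which overlaps day 2. Then they held 2.20, 2.59 and 1.77 CPM at 42 h, 6.88, 12.2 and 12.1 CPM at 54 h, 29.7, 26.4 and 34.0 CPM at 66 h and 57.5, 59.7 and 62.4 CPM at 78 h. Every untreated library from 42 h on stood above every untreated library of the time before. The untreated range at 66 h overlaps that of RA-treated organoids at 30 h, and the first RA-treated mean above the untreated mean of 78 h was that of 42 h.

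The arms did not overlap in Ednrb from 18 h to 78 h. The log2 fold change was 2.43 at 18 h (SE 0.32, adjusted p = 3.29e-05), 5.97 at 30 h (SE 0.22, adjusted p = 2.37e-05) and 5.62 at 42 h (SE 0.13, adjusted p = 7.66e-10). It was then smaller at each time, with 3.63 at 54 h, 2.3 at 66 h and 1.44 at 78 h (SE 0.08, adjusted p = 1.69e-07). The untreated 30 h libraries held only 7 to 10 Ednrb reads each and were all low in the Y chromosome genes. The part of this in the size of the 30 h effect was not tested. The difference between the 78 h and the 18 h effect was -1.02 on the log2 scale, with an adjusted p of 0.021, and was not called. Without RA-treated 78 h replicate 3 that difference passed, at -1.08 with an adjusted p of 0.00724, and it also passed in DESeq2 (adjusted p = 0.00656) and without the filter on low counts (-0.98).

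Kit (ENSMUSG00000005672, chromosome 5, 75574916 to 75656722) was already expressed at day 2, with 48.0, 48.5 and 43.8 CPM. After 8 h of RA its libraries held 205, 177 and 183 CPM, against 56.4, 56.8 and 52.6 CPM in untreated organoids. At 18 h they held 163, 201 and 190 CPM, against 57.1, 49.0 and 59.5 CPM. The arms were far apart at both times and the RA-treated libraries of 8 h and 18 h overlapped each other. At 30 h replicates 1 and 3 held 210 and 199 CPM and replicate 2 held 110 CPM, and replicate 2 is also the only RA-treated 30 h library with the high level of the Y chromosome genes; its part in the spread was not tested.

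The RA effect on Kit was a log2 fold change of 1.77 at 8 h (SE 0.08, adjusted p = 8.31e-05), 1.75 at 18 h (SE 0.08, adjusted p = 2.17e-09) and 1.57 at 30 h (SE 0.22, adjusted p = 0.00223), where the adjusted p was 0.0161 to 0.0203 without any 1 of the untreated libraries. At 42 h the arms stood at 87.8 ± 3.44 and 45.8 ± 1.82 CPM, without overlap, with a log2 fold change of 0.93 that missed the minimum size. At 54 h the RA-treated libraries held 43.9, 61.0 and 57.8 CPM and overlapped the untreated 47.0, 50.8 and 48.8 CPM. The later effects were 0.25 at 66 h and 0.27 at 78 h, small but with adjusted p of 0.00220 and 0.00783. The difference between the 78 h and the 18 h effect was -1.50 (SE 0.12, adjusted p = 4.88e-08) and was called, where 27.9% of the 18017 genes tested for it were called. Untreated condition means stayed between 45.8 and 58.0 CPM throughout.

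**Figure D2:**
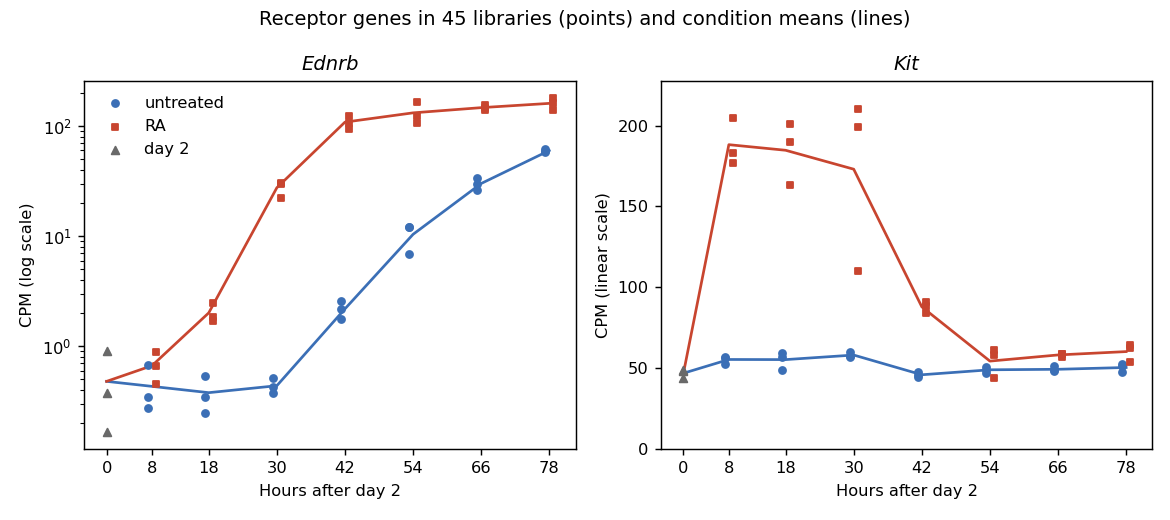
Ednrb on a log axis and Kit on a linear axis, in CPM, against hours after day 2; points are single libraries (triangles day 2, circles untreated, squares RA-treated) and lines join condition means. RA-treated Kit lies between 110 and 210 CPM from 8 h to 30 h and near the untreated level from 54 h on, while untreated Ednrb climbs from 0.438 CPM at 30 h to 59.9 CPM at 78 h, below the RA-treated line.

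The ligands and partners of these receptors formed a list of 8 genes. At 18 h 3 of the 8 tested genes were higher with RA and none lower, and at 78 h 1 of 7 was higher and 2 were lower. The medians were 0.07 and -0.07, and 10.9% and 11.7% of all genes tested were called at these times. At 18 h the called genes were the endothelin genes Edn1 (log2 fold change 1.91) and Edn3 (1.30) and the other receptor gene Ednra (1.41). Edn1 stood at 0.853 ± 0.108 CPM with RA and 0.227 ± 0.0968 CPM without, and Edn3 at 1.37 ± 0.0951 and 0.548 ± 0.216 CPM. At 78 h Kitl, which encodes stem cell factor, the ligand of Kit, held 34.7 ± 1.77 CPM with RA and 7.73 ± 0.146 CPM without, a log2 fold change of 2.18 (SE 0.08, adjusted p = 2.75e-09). Ece2, an endothelin-converting enzyme gene, was lower with RA (-1.09), and so was Nrg1 (-1.05).

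Sox9 (ENSMUSG00000000567, chromosome 11, 112782224 to 112787760), a SoxE factor of crest and neural tube progenitors, rose with time in both arms and further with RA. It started at 0.497, 0.3 and 0.249 CPM at day 2. At 18 h the RA-treated libraries held 2.08, 1.81 and 2.04 CPM and the untreated ones 1.13, 0.949 and 0.934 CPM, so the arms did not overlap. That log2 fold change lay on the limit of a call, at 1.00 (SE 0.22, adjusted p = 0.00187), and fell just under it with RLE size factors (0.98), in DESeq2 (0.97), without the filter on low counts (0.99) and without any of 4 single libraries (0.93 to 0.98). The arms stayed apart at every later time.

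The effect on Sox9 was 1.08 at 42 h, where it fell under the limit without replicate 1 of the untreated (0.99) or RA-treated (0.96) organoids, then 1.20 at 54 h (SE 0.19, adjusted p = 3.61e-04) and 1.20 at 66 h (SE 0.15, adjusted p = 1.38e-04). At 78 h the RA-treated libraries held 15.7, 12.9 and 13.7 CPM against 9.21, 9.49 and 9.79 CPM, a log2 fold change of 0.58 (SE 0.10, adjusted p = 5.53e-04) below the minimum size. At 30 h the RA-treated libraries disagreed, with 1.40, 4.57 and 1.26 CPM, and the untreated ones held 0.451, 0.610 and 0.306 CPM, less than at 18 h and 42 h. The effect of 2.42 missed the threshold (SE 0.62, adjusted p = 0.0246). Without RA-treated replicate 2, which leaves only libraries low in the Y chromosome genes, it was 1.54 with an adjusted p of 0.00269.

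Sox10 (ENSMUSG00000033006, chromosome 15, 79154908 to 79165240), the SoxE gene that is most typical of migrating crest, stayed low in all 45 libraries. Its highest condition mean was 1.53 ± 0.698 CPM, in RA-treated organoids at 18 h. Those libraries held 0.955, 1.32 and 2.31 CPM, against 0.316, 0.330 and 0.347 CPM in untreated organoids, and the log2 fold change was 2.19 (SE 0.38, adjusted p = 3.57e-04). At 66 h the levels were 0.855 ± 0.125 and 0.298 ± 0.143 CPM with a fold change of 1.52 (adjusted p = 0.00501), which was not called in DESeq2 (adjusted p = 0.0154) or without any of 4 single libraries. The call at 18 h rests on 22 to 53 reads per RA-treated library and 7 to 13 per untreated library.

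Sox8 (ENSMUSG00000024176, chromosome 17, 25565892 to 25570686), the third SoxE gene, was called higher with RA at 42, 54, 66 and 78 h. At 78 h it held 2.06, 2.90 and 3.08 CPM with RA and 1.40, 1.10 and 1.00 CPM without, a log2 fold change of 1.21 (SE 0.23, adjusted p = 0.00125). The largest effect was 1.55 at 54 h (SE 0.27, adjusted p = 6.20e-04), with 1.96 ± 0.328 against 0.654 ± 0.104 CPM. The effect of 1.42 at 42 h had an adjusted p of 0.00655, which rose above 0.01 without any of 5 of the 6 libraries. In the annotation 329 exon bases of Sox8 overlap the antisense gene 2810468N07Rik, which itself reached 112 counts where Sox8 reached 88, and the strand setting of the counting is not given in the sources used here, so Sox8 values are uncertain.

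The AP-2 genes encode factors that act early at the neural plate border. Tfap2a (ENSMUSG00000021359, chromosome 13, 40715302 to 40738376) began high, with 5.26, 5.40 and 5.90 CPM at day 2, and fell in both arms. At 18 h the RA-treated libraries were lower than the untreated ones, with 1.91, 1.98 and 2.17 CPM against 3.20, 3.18 and 3.01 CPM, a log2 fold change of -0.62 (SE 0.16, adjusted p = 0.00667) that missed the minimum size. At 30 h, 42 h and 54 h the arms overlapped. They then parted in the other direction, with 3.65, 3.43 and 3.36 CPM with RA at 66 h against 1.03, 1.17 and 0.690 CPM.

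At 78 h Tfap2a stood at 5.42, 4.88 and 4.59 CPM in RA-treated organoids, back near its level at day 2, and at 0.827, 1.04 and 0.558 CPM in untreated ones. The log2 fold change was 1.86 at 66 h (SE 0.20, adjusted p = 4.53e-05) and 2.64 at 78 h (SE 0.22, adjusted p = 2.30e-06), the largest of the members at 78 h. Between 18 h and 78 h the RA effect differed by 3.23 (SE 0.26, adjusted p = 7.87e-08). A further 3 antisense genes, Gm26688, Gm47067 and Gm47061, overlap exons of Tfap2a and held at most 10, 1 and 26 counts in a library, against up to 187 for Tfap2a.

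Genes of the surface ectoderm, where Tfap2a is also known, differed between the arms as well. Of the 11 genes listed, 2 of 10 tested were higher and 1 lower with RA at 18 h (median 0.36), against 10.9% of all genes called. At 78 h 6 of 11 were higher and none lower (median 2.12), against 11.7% of all genes called. Their summed level was 1292 to 1352 CPM at day 2, and 712 to 848 CPM with RA against 1139 to 1351 CPM without at 18 h. At 78 h it was 825 to 891 CPM in RA-treated and 427 to 512 CPM in untreated libraries, below day 2 in both arms. The keratin genes Krt19 and Krt8 had log2 fold changes of 3.79 and 3.62 at 78 h, Dlx3 3.58 and Krt18 3.30. Other genes of the list had negative values at 78 h, below the minimum size, with -0.56 for Cdh1, which encodes E-cadherin, -0.73 for Epcam and -0.63 for Grhl2. At 30 h, 42 h and 54 h 3 of 10 were called lower, beside 0, 5 and 5 called higher. The part of these genes in the level of Tfap2a was not tested.

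Tfap2b (ENSMUSG00000025927, chromosome 1, 19208914 to 19238576) had no counts at day 2 and at most 4 counts in any library up to 30 h. It rose in both arms from 42 h on. RA-treated libraries held 7.48, 7.25 and 7.36 CPM at 66 h against 2.33, 3.03 and 2.67 CPM, a log2 fold change of 1.47 (SE 0.13, adjusted p = 9.80e-06). At 78 h they held 11.1, 9.69 and 8.12 CPM against 3.34, 3.36 and 2.34 CPM, a fold change of 1.70 (SE 0.17, adjusted p = 1.34e-05). Against a floor of 3 counts per library at day 2, the level at 78 h was at least 72.6-fold higher with RA and at least 22.7-fold higher without.

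The Snail genes encode repressors of E-cadherin that act when crest cells leave the epithelium. Snai1 (ENSMUSG00000042821, chromosome 2, 167538195 to 167542814) held 5.06, 5.65 and 6.48 CPM at day 2. At 18 h the arms did not differ beyond their spread, with 3.78, 3.42 and 3.61 CPM with RA and 3.61, 4.13 and 3.57 CPM without, a log2 fold change of -0.05 (SE 0.14). At 78 h they did, with 4.40, 5.19 and 5.53 CPM against 1.33, 1.43 and 1.65 CPM. Untreated organoids lost Snai1 RNA and RA-treated ones ended close to the level of day 2.

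The log2 fold changes of Snai1 were 0.67 at 42 h, 1.21 at 54 h (SE 0.18, adjusted p = 2.42e-04), 1.26 at 66 h (SE 0.15, adjusted p = 7.63e-05) and 1.79 at 78 h (SE 0.17, adjusted p = 7.19e-06). The difference between the effects at 78 h and 18 h was 1.81 (SE 0.21, adjusted p = 4.25e-06). At 30 h RA-treated replicate 2, the only library of that time with the high level of the Y chromosome genes, held 4.87 CPM of Snai1. RA-treated replicates 1 and 3 held 1.86 and 1.68 CPM, and the untreated libraries held 1.13, 1.04 and 0.919 CPM. RA-treated 8 h replicate 3, also low in the Y chromosome genes, held 1.6 CPM against 3.27 and 3.81 CPM in the other RA-treated 8 h libraries. A link of Snai1 to the Y chromosome genes was not tested. The effect at 30 h was 1.45 (adjusted p = 0.0537), and 0.75 (adjusted p = 0.0356) without replicate 2.

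Snai2 (ENSMUSG00000022676, chromosome 16, 14705852 to 14709385), which marks premigratory crest in many vertebrates, stayed under 2 CPM. At 78 h it held 1.85, 1.64 and 1.09 CPM with RA and 0.827, 0.773 and 0.669 CPM without, a log2 fold change of 1.04 (SE 0.26, adjusted p = 0.00715). The arms did not overlap at any time but 18 h. The call at 78 h was lost in DESeq2 (adjusted p = 0.0189) and without any of 5 of the 6 libraries, so it rests on the full set.

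Ets1 (ENSMUSG00000032035, chromosome 9, 32636221 to 32757820), an ETS factor of cranial crest and endothelium, started at 3.90, 3.95 and 3.74 CPM. At 54 h RA-treated libraries held 18.2, 16.2 and 16 CPM against 7.02, 7.23 and 6.77 CPM, a log2 fold change of 1.25 (SE 0.10, adjusted p = 3.07e-06). At 78 h they held 16, 16.6 and 13.9 CPM against 8.52, 9.96 and 10.6 CPM, with a fold change of 0.69 (adjusted p = 2.54e-04) under the minimum size. At 18 h the arms overlapped, with a fold change of 0.05. The difference between 78 h and 18 h was 0.62 (SE 0.16, adjusted p = 0.00497), which rose above the threshold with library totals (adjusted p = 0.0109) and in a fit of all 45 libraries (adjusted p = 0.0123). It did so too without untreated 18 h replicate 1 (0.0108) or 2 (0.0117) or RA-treated 18 h replicate 1 (0.0156).

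The 30 h call of Ets1 also involves the libraries that stood apart. The untreated 30 h libraries held 3.46, 3.54 and 3.63 CPM, less than any untreated library at 18 h or 42 h, and the RA-treated ones held 7.08, 9.96 and 7.61 CPM. The log2 fold change was 1.22 (SE 0.20, adjusted p = 0.00400), and 1.03 (adjusted p = 1.67e-05) without RA-treated replicate 2. Without any 1 of the untreated libraries the adjusted p was 0.0247 to 0.0296 and the call was lost. Of 6 listed genes of endothelium and blood, none was higher and 3 were lower with RA at 18 h (5 tested, median -1.64). At 78 h 3 of 6 were higher and 0 lower (median 1.23). Of all genes tested, 10.9% were called at 18 h and 11.7% at 78 h. The summed level of the 6 genes was 118 to 138 CPM at day 2. At 78 h it was lower in both arms, with 50.8 to 66.5 CPM with RA and 19.6 to 23.6 CPM without. Cdh5 had a log2 fold change of 4.96 at 78 h. The part of these genes in the level of Ets1 was not tested.

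**Figure D3:**
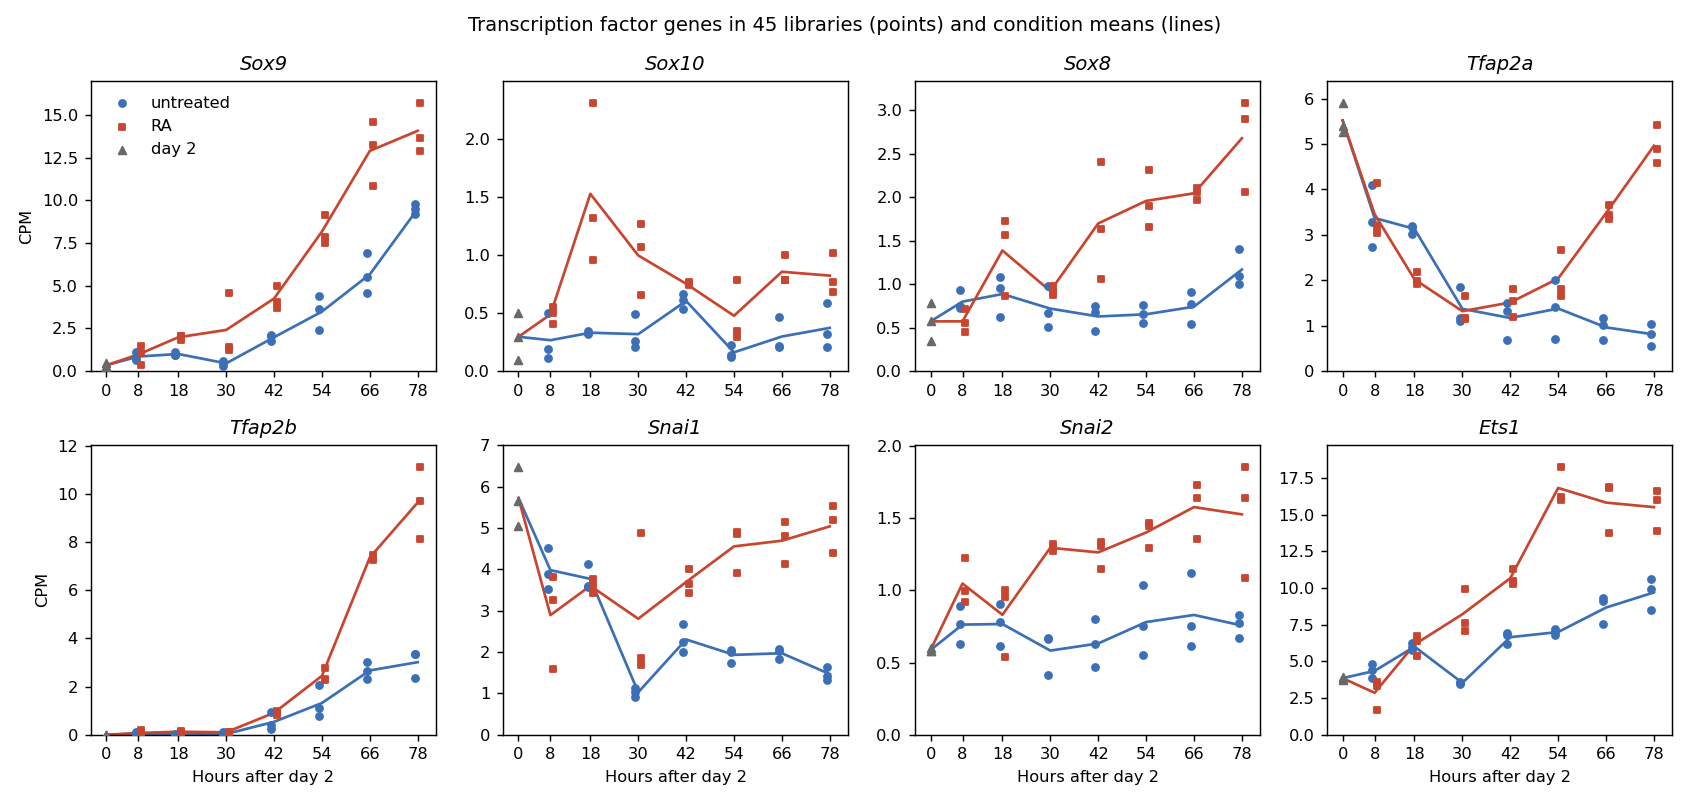
CPM of the 8 transcription factor genes against hours after day 2, on linear axes that start at 0 with a scale for each gene; points are single libraries (triangles day 2, circles untreated, squares RA-treated) and lines join condition means. Tfap2a and Snai1 fall from day 2 and recover with RA to 4.96 and 5.04 CPM at 78 h, Tfap2b appears from 42 h on, and Sox9, Snai1 and Ets1 dip in the untreated libraries of 30 h.

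Time within each arm was compared with the counts as well. From day 2 to untreated 42 h, 4 of 9 tested members were called, against 21.8% of all genes: Sox9 (log2 fold change 2.51) and Ednrb (2.26) rose, and Tfap2a fell by 2.20 and Snai1 by 1.28. From day 2 to RA-treated 42 h, 7 of 10 were called, against 32%: Ednrb (7.89), Sox9 (3.58), Sox8 (1.55), Ets1 (1.48), Snai2 (1.11) and Tfap2b rose, Tfap2b at least 6.87-fold over the floor of day 2, and Tfap2a fell by 1.86. These comparisons share the day 2 libraries. The call of Snai2 was lost without any single one of the 6 libraries and in DESeq2 (adjusted p = 0.0337), and that of Sox8 without replicate 2 of day 2 (adjusted p = 0.0123) or of the RA-treated organoids (0.0197).

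From 42 h to 78 h, 3 of 10 members were called in untreated organoids, against 8.28% of all genes, and 3 of 10 in RA-treated organoids, against 7.26%. At an adjusted p below 0.05 and any fold change 6 members passed in each arm, against 47.6% of all genes in the untreated and 36.1% in the RA-treated organoids. In untreated organoids Ednrb (4.75), Tfap2b (2.47) and Sox9 (2.23) rose. In RA-treated organoids Tfap2b (3.36), Sox9 (1.70) and Tfap2a (1.69) rose, while Kit had a log2 change of -0.58 (adjusted p = 1.87e-04) and Ednrb one of 0.53, both under the minimum size. Sox9 and Tfap2b were thus called in both arms. All 78 h libraries and no 42 h library belong to the later series of library numbers, so time and library series cannot be told apart here.

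Levels of different genes were compared per kilobase of merged exons. In RA-treated organoids at 78 h the order was Ednrb (37.6 CPM per kb), Kit (6.75), Sox9 (3.40), Snai1 (3.11), Ets1 (1.83), Tfap2b (1.52), Tfap2a (1.01), Sox8 (0.859), Snai2 (0.755) and Sox10 (0.269). Ranges of the 3 libraries overlapped between Sox9 and Snai1, between Ets1 and Tfap2b, between Tfap2a and Sox8 and between Sox8 and Snai2. At day 2 Kit led with 5.25 CPM per kb, then Snai1 with 3.53 and Tfap2a with 1.13, and Ednrb stood at 0.112. The day 2 range of Ednrb, 0.0389 to 0.211 CPM per kb, overlapped those of Sox8, Sox10 and Sox9. In untreated organoids at 78 h Ednrb also led, with 14.03 CPM per kb, followed by Kit with 5.65. Ednrb thus moved from the lower part of the order at day 2 to the top at 78 h in both arms.

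The genes whose 15 condition means were most like those of a member, by Pearson's r of log2(CPM + 1) among 12439 genes with a condition mean of 5 CPM or more, were found for the 7 members that reach that level themselves. The means share libraries, arms and times. Ednrb was most like A830082K12Rik (r = 0.990), Sox6 (0.990) and 9530068E07Rik (0.989). Kit was most like Ccdc88b (0.969), Gm26562 (0.963) and Mafa (0.960). For Sox9 the nearest were Sema6d, Eya4 and Cacng4 (0.984 to 0.982), for Tfap2b Nkx6-1, Pantr1 and Wnt7a (0.990 to 0.975), and for Ets1 March8, Plscr3 and Lzts2 (0.980 to 0.977). Tfap2a (Lgals3, Znfx1 and Cd68, 0.960 to 0.928) and Snai1 (Mpp1, Cldn4 and S100a11, 0.969 to 0.960) had less close neighbours.

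Other genes of the crest pathway were read from lists, each with its count of calls and its median log2 fold change between the arms. The median of all genes was 0.02 at 18 h and 0.00 at 78 h. The share of all genes called was 10.9% at 18 h, 8.45% at 30 h, 12.5% at 42 h, 13.2% at 54 h, 11.5% at 66 h and 11.7% at 78 h. Neural plate border genes were called higher in 8 and lower in 1 of 10 tested at 18 h (median 1.35), and higher in 5 and lower in 2 of 9 at 78 h (median 1.17). Pax3, a border factor that later marks crest and dorsal neural tube, had a log2 fold change of 2.68 at 18 h and 1.17 at 78 h. Msx1, a target of BMP signals, had the largest at 78 h (4.24), with 19.9 ± 0.351 CPM against 1.06 ± 0.209 CPM, followed by Zic1 (2.83) and Msx2 (2.45).

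The list of crest specifiers outside the 10 genes went both ways. At 18 h 3 of 11 were higher and 3 lower (median 0.18), and at 78 h 5 of 12 were higher and 1 lower (median 0.27). Foxd3, a crest specifier that is also a gene of pluripotent cells, was lower with RA at both times, with 0.711 ± 0.176 CPM against 44.6 ± 0.987 CPM at 18 h (log2 fold change -5.95) and -1.55 at 78 h. At 18 h the cadherin gene Cdh6 was higher with RA (2.79) and Mycn lower (-2.63), and at 78 h Id3, a BMP response gene, was higher (2.55).

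Genes of migrating crest and its derivatives were called higher in 3 and lower in none of 14 tested at 18 h (median 0.31), and higher in 7 and lower in 2 of 17 at 78 h (median 0.56). The summed level of these 18 genes at 78 h was 653 to 765 CPM with RA and 1332 to 1392 CPM without, of which Crabp1 alone, which binds RA and is also a gene of neural tissue, held 449 ± 53.6 and 1195 ± 33.8 CPM. Nrp1 (2.69) and Cdh11 (1.82) were higher with RA at 78 h, and these genes are also known from vessels and mesenchyme, respectively. Prrx2, a gene of crest mesenchyme, was higher at 18 h (2.02). Dct, which marks pigment cells, a crest derivative, was near 0 at 78 h, with 0.0599 CPM with RA and 0.0306 CPM without. Sox10 held 0.822 and 0.372 CPM there.

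**Figure D4:**
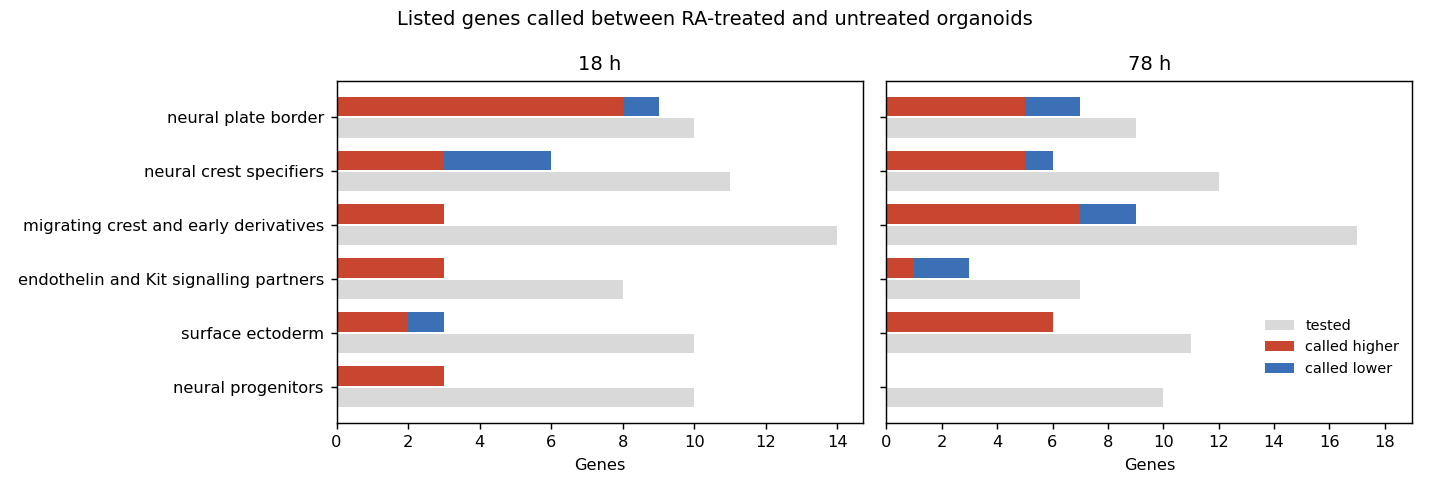
Number of genes tested (grey) and called higher (red) or lower (blue) with RA at 18 h and 78 h in 6 gene lists around the 10 genes. Border genes have the most calls at 18 h, with 9 of 10, and surface ectoderm genes have 6 calls, all higher, at 78 h.

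Neural progenitor genes, the tissue these organoids are named for, were called higher in 3 and lower in none of 10 at 18 h (median 0.20), Sox1 most with 2.45, and none of 10 was called at 78 h (median 0.40). Between these times 4 were higher and none lower at 30 h (median 0.81), 4 higher and 1 lower at 42 h (0.87), 5 higher and 1 lower at 54 h (0.87), and none was called at 66 h (0.57). Their summed level at 78 h was 1600 to 1861 CPM with RA and 1321 to 1528 CPM without. Genes of pluripotent cells summed to 1636 to 1770 CPM at day 2, 723 to 813 CPM with RA and 1232 to 1319 CPM without at 18 h, and 272 to 471 against 442 to 529 CPM at 78 h. Of these 8 genes 1 was higher and 2 lower with RA at 18 h, and 2 higher and 2 lower at 78 h. Mesoderm and endoderm genes were higher in 4 and lower in 1 of 6 tested at 18 h and higher in 3 and lower in 1 of 6 at 78 h, with sums of 21.5 to 22.8 against 6.47 to 8.25 CPM at 78 h. The part of these cell types in the members' levels was not tested.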

How the data were processed

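The authors deposited raw read counts per gene for 45 libraries of poly(A) RNA, 3 for each of 15 conditions. According to the submitters' processing notes and the study's methods, reads were trimmed (Trim Galore 0.5.0), cleared of abundant sequences (Bowtie2 2.3.4.1), aligned to GRCm38 with STAR and counted with featureCounts (Subread 1.6.2), without pooling. One protocol text gives the RA dose in µM and other late times; titles and design text give 250 nM and the times used here. The study calls the replicates biological and the 45 samples independent, without saying whether each was a culture of its own, so p-values measure the spread between these libraries. The 10 genes and the gene lists were chosen with earlier results of these data known.

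Counts were tested with edgeR 4.0.16 in R 4.3.3 (TMM, filterByExpr with minimum count 10 and minimum total count 15, glmQLFit and glmQLFTest, Benjamini-Hochberg adjustment over all genes tested), on the 6 libraries of each comparison, or 12 for the difference of RA effects, which was called at an adjusted p under 0.01. The standard error is the log2 fold change over the square root of F. Positions come from GENCODE M21 and windows from RefSeq. Of the listed genes, at most 4 per list were named, those with the largest change among the calls at 18 h or 78 h; Dct, Crabp1, Cdh1, Epcam, Grhl2, Ece2, Nrg1 and the Y chromosome genes were named after their values were seen. A few genes picked by this rule are not reported here. The alternatives tried were DESeq2 1.42.0, size factors by RLE or by library totals, no filter, all 45 libraries in 1 fit, a replicate block, an adjusted p below 0.05 at any fold change, earlier library numbers only, and each library left out. The tests were tried on simulated counts. Depth limits genes such as Sox10, Tfap2b and Snai2, and intervals were not computed.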

Additional observations from a re-analysis of the deposited data

Results flagged for a closer look

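Of the 10 genes, 4 are listed here because their RA effect differed between 78 h and 18 h in an edgeR interaction test over 12 libraries, which called 27.9% of all genes tested. For Tfap2a the difference was 3.23 on the log2 scale, from -0.62 at 18 h to 2.64 at 78 h. For Snai1 it was 1.81, from -0.05 to 1.79. Ets1 had the smallest, with 0.62, from 0.05 to 0.69, and lost the call with library totals, in a fit of all 45 libraries and without any of 3 single 18 h libraries. Kit went the other way, with -1.50, from 1.75 to 0.27. The 18 h libraries are from the earlier and the 78 h libraries from the later series of library numbers, in both arms. No sample was tested as an outlier, since each group has 3 libraries.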

How the results depend on the processing

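Of 727 log2 fold changes under alternatives that used all libraries of a comparison or the earlier ones, 694 kept their direction and their side of the threshold, and of 749 with 1 library left out 691 did. At an adjusted p below 0.05 and any fold change, the number of members called was 6 in place of 3 at 30 h, 7 in place of 3 at 42 h, 10 in place of 6 at 78 h, and 6 in place of 3 for 78 h against 42 h in each arm. One fit of all 45 libraries called 7 at 30 h. With a library left out, the count at 30 h ranged from 1 to 5 and at 42 h from 1 to 3. The share of all genes called was not taken for the fit of all 45 libraries or with a library left out. These counts therefore cannot be set against all genes. Without any of the 3 untreated 30 h libraries Ednrb was the 1 member called; without RA-treated 30 h replicate 2 Sox9 and Sox10 were called as well. Without untreated or RA-treated 42 h replicate 1, 1 member was called at 42 h. Uncalled values near 0 turned in direction. Kit from day 2 to untreated 42 h was -0.013 with RLE size factors, -0.011 in DESeq2, -0.038 in the fit of all libraries and -0.030 with earlier library numbers. With library totals Snai1 at 18 h was 0.064 and Tfap2a at 30 h was 0.067. With a library left out, 14 values turned, in Tfap2a at 8 h (-0.13 to 0.20), Sox9 at 8 h (-0.18 to 0.55), Snai1 (-0.11 to 0.018), Snai2 (-0.026 to 0.39) and Ets1 (-0.022 to 0.14) at 18 h, Tfap2a at 30 h (-0.25 to 0.18), Kit (-0.034 to 0.040), Snai2 (-0.071 to 0.31) and Sox8 (-0.086 to 0.45) from day 2 to untreated 42 h, and Sox10 from RA-treated 42 h to 78 h (-0.081 to 0.21). The cause was not tested. Replicate numbers did not pair the libraries: over 21 pairs of the same number, deviations correlated from -0.19 to 0.23, with 3 pairs over 0.1. With a replicate block, Sox9 at 18 h (1.00, just under the limit), Sox8 at 42 h (adjusted p = 0.0203) and Snai2 from day 2 to RA-treated 42 h (adjusted p = 0.0104) lost the call, and Sox9 at 30 h gained it (adjusted p = 0.00892). With earlier library numbers, Ets1 at 30 h was 0.99, under the limit, but replicate 1 was then the only RA-treated library left. Tfap2b at 54 h was called at 1.33 with earlier library numbers, which there is the same as leaving out untreated replicate 3. Members near or under 1 CPM, such as Sox10 and Snai2, were limited by depth.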

Other observations

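Tfap2b and Sox10 had low counts at times when they were not tested. Tfap2b held 3, 4 and 2 counts in the RA-treated libraries at 18 h and 0, 0 and 1 in the untreated ones, and at 30 h 3, 4 and 3 counts against 0, 0 and 2. Sox10 at 54 h, which was removed by the filter on low counts, held 0.347, 0.789 and 0.295 CPM with RA and 0.138, 0.12 and 0.229 CPM without, with no overlap of the arms. At 42 h the arms of Tfap2b overlapped, with 0.839, 0.916 and 0.983 CPM with RA and 0.943, 0.418 and 0.252 CPM without.

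Some members differed between the arms in the direction opposite to their later effect. At 8 h the RA-treated libraries of Ets1 held 3.56, 3.31 and 1.71 CPM against 4.39, 4.82 and 3.85 CPM, a log2 fold change of -0.59 (edgeR, adjusted p = 0.214), and -0.35 without RA-treated replicate 3. Sox8 held 0.713, 0.453 and 0.553 CPM against 0.933, 0.745 and 0.722 CPM at 8 h, also with no overlap and not called.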
